A study of Mus musculus with 8 samples.

Results

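The anoctamins, also called the TMEM16 family, were described across 8 RNA libraries of mouse colon fibroblasts. The 10 genes Ano1 to Ano10 were taken by symbol from the 55573 genes of the count tables. The family was chosen by the CPM of Ano3, which were higher in irradiated libraries in an earlier reading of these data, so that difference is a description with no test. The other 9 genes belong to the set by family name alone, and the 3 of them with enough counts were tested in a fit across all genes.

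The 4 irradiated libraries came from cells given 3 fractions of 2 Gy, and the 4 non-irradiated libraries from cells given none. Cells of both groups were colon fibroblasts of the C57BL6/J strain in 2D culture, and APTKA-conditioned medium was given to all of them (the labels leave this name unexplained). All were collected 72 h after the first dose. Libraries carry the numerals I to IV in each group. The labels do not say whether these were separate cultures or animals, so p-values here reflect only how these libraries vary, which may be technical.

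Anoctamins are membrane proteins with a shared fold and diverse activities. ANO1 and ANO2 are chloride channels opened by intracellular calcium. ANO6 is a calcium-activated scramblase that moves phosphatidylserine to the outer leaflet of the plasma membrane, and scrambling has been reported for several other members. ANO8 tethers the endoplasmic reticulum to the plasma membrane. In the gut wall, ANO1 marks the interstitial cells of Cajal, which pace smooth muscle.

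Total counts ran from 30203137 to 36497990 in irradiated libraries and from 28731227 to 37157216 in non-irradiated libraries. All 11 fibroblast markers averaged at least 1 CPM, and their summed level was 14379 to 15672 CPM in irradiated libraries and 15800.4 to 18585 CPM in non-irradiated libraries. CPM are counts scaled to library size with TMM factors. The collagen gene Col1a2 (log2 fold change -0.24, adjusted p = 0.0101) and the intermediate filament gene Vim (-0.14, 0.0462) were lower in irradiated libraries by edgeR's quasi-likelihood test, and the other 9 were not called, with log2 fold changes from -0.36 (Fap) to 0.10 (Lum). Summed markers of smooth muscle were at 400.4 to 463.8 CPM in irradiated libraries and 456.3 to 487.6 CPM in non-irradiated libraries. Most of that sum was the actin gene Actg2, which was lower in irradiated libraries (-0.20, adjusted p = 0.0263, edgeR), while Synpo2, a gene of an actin-binding protein, was higher (0.33, 0.0134). Markers of interstitial cells of Cajal, Ano1 set aside, summed to 8.34 to 10.1 CPM in irradiated and 9.15 to 10.8 CPM in non-irradiated libraries, nearly all of it Etv1, while the defining gene Kit had 14 counts over all libraries and Slitrk6 had 0. Summed markers reached 4.40 CPM in irradiated and 4.57 CPM in non-irradiated libraries for enteric neurons, 1.22 and 1.23 CPM for enteric glia, 0.659 and 1.14 CPM for epithelium, 14.7 and 14.3 CPM for leukocytes and 5.23 and 4.74 CPM for endothelium. In bulk RNA, fewer cells of a type and less RNA per cell cannot be told apart. The part of the marker levels in the results below was not tested. The 12S and 16S mitochondrial rRNA stood apart in irradiated I and II, with 15271 and 15425 CPM, against 4203 to 5906 CPM in the other 6 libraries.

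Of the 10 anoctamins, 4 were expressed clearly in both groups, 3 were at trace level and 3 had no count in any library. Ano6 and Ano10 were the most abundant, Ano8 came next and Ano3 was the lowest of the 4. This order is on the TPM scale, which divides counts by the length of the annotated exons. Ano6 was at 65.9 to 70.7 TPM in irradiated and 70.0 to 76.8 TPM in non-irradiated libraries. Ano10 was at 55.6 to 59.6 TPM in irradiated and 59.0 to 61.9 TPM in non-irradiated libraries. The levels of Ano6 and Ano10 did not overlap within either group. Ano8 followed with 19.1 to 25.3 TPM in irradiated and 16.9 to 18.8 TPM in non-irradiated libraries, and Ano3 with 9.09 to 10.2 TPM in irradiated and 4.11 to 5.01 TPM in non-irradiated libraries. The order held in each library, also when the length of the longest annotated transcript was used, where Ano6 averaged 132.6 ± 4.44 TPM and Ano10 101.2 ± 2.62 TPM in irradiated libraries (SD, n = 4).

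**Figure D1:**
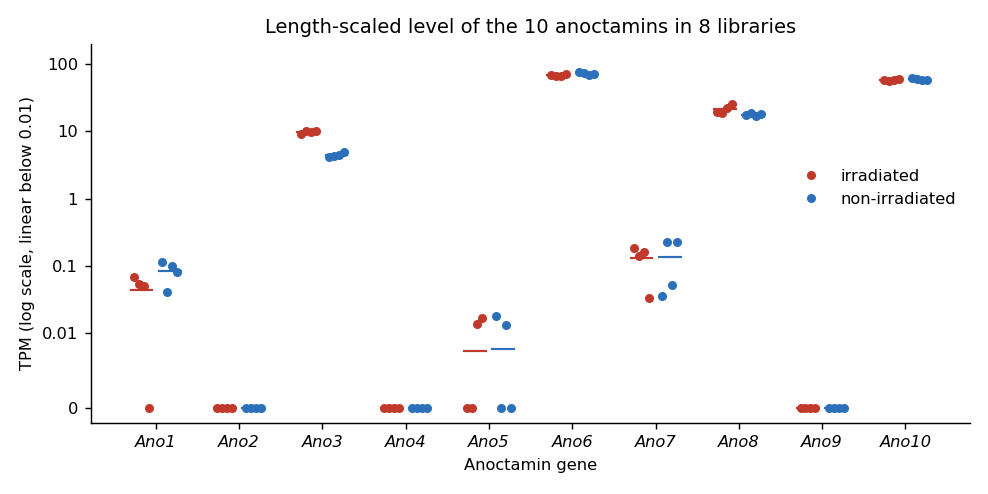
TPM of each of the 10 anoctamins (vertical axis, logarithmic above 0.01 and linear below), with a point per library, irradiated left of non-irradiated, and a line at each group's mean. Ano6, Ano10, Ano8 and Ano3 stand above 4 TPM in all libraries, and the other 6 genes stay below 0.3 TPM.

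Of the 3 trace genes, Ano5 had the fewest counts, and Ano1 and Ano7 could not be ordered. Ano7, best known from human prostate, had 7, 5, 6 and 1 counts in irradiated libraries I to IV and 1, 7, 2 and 7 counts in non-irradiated libraries. Ano1, the calcium-activated chloride channel, had 4, 3, 3 and 0 counts in irradiated libraries and 5, 2, 6 and 4 counts in non-irradiated libraries. Ano5, whose human counterpart is mutated in a muscular dystrophy, had 0, 0, 1 and 1 counts in irradiated libraries and 1, 0, 1 and 0 counts in non-irradiated libraries. The groups overlapped for all 3, and a difference was not detectable at this depth. Ano2, the channel of olfactory neurons, Ano4, the closest relative of Ano3, and Ano9, first described in human cells as a p53-induced gene, had no count in any of the 8 libraries. A count of 0 allows up to 3 counts in a library, or 0.0807 to 0.104 CPM, for counting error only.

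The 250 bases before the annotated start were taken from RefSeq (GRCm38.p6), which holds 8 of the 10 genes in 11 windows, Ano8 and Ano9 not among them. They are shown for Ano6 and Ano10, the most abundant members, and for the start of Ano3 that lies inside its gene body, 5′ to 3′ on the gene's strand, with each CpG in capitals. The Ano6 window is chr15:95790593-95790842 on the plus strand, the Ano10 window chr9:122294424-122294673 on the minus strand and the Ano3 window chr2:110840060-110840309 on the minus strand.
Ano6: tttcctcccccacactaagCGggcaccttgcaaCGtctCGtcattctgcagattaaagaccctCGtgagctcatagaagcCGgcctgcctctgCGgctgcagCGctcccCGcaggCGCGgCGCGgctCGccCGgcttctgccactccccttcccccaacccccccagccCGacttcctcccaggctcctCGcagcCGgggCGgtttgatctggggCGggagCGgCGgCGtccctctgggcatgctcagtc
Ano10: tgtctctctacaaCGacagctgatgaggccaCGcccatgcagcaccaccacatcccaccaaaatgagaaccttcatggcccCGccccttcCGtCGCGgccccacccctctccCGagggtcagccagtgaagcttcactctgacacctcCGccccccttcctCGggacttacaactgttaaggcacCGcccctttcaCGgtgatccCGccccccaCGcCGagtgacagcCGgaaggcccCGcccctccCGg
Ano3: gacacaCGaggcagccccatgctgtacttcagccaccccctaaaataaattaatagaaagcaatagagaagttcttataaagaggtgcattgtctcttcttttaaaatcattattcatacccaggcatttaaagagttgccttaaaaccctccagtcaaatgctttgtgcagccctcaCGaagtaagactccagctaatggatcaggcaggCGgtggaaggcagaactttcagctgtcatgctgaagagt
The Ano6 window held 22 CpG and the Ano10 window 17, counts that 14.8% and 23.5% of all 32841 windows reached. The Ano3 window shown held 3, which 71.0% of windows reached. The other Ano3 start, whose window lies wholly inside the first annotated exon and is not shown, had 7, which 46.3% reached. Among all windows the median was 6. CpG counts did not follow the RNA levels of the family: the trace genes Ano1 and Ano5 had 16 and 13, and the 3 windows of Ano2, which had no count, had 8, 12 and 4. Ano7 had 3 and Ano4 had 2. The windows of Ano1 and Ano4 and the Ano2 window with 4 also lie inside the gene body. The Ano2 window with 12 has 200 bases inside its own annotated exon. Which Ano3 start was used cannot be read from counts per gene.

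Short motifs were searched on both strands of these windows. The Sp1 box GGGCGG was found in 4 of the 11 windows, 1 each of Ano1, Ano2, Ano6 and Ano10, against 32.7% of all windows. The box TATAAA was found in 1 window, that of Ano3 shown above, against 12.4% of all windows. The AP-1 site TGANTCA was in 0 of the 11 windows, against 6.75% of all windows. The p53 decamer was in 2 windows, of Ano2 and Ano6, against 7.13% of all windows. For Ano2, the Sp1 box and the decamer were both in the window with 200 bases inside its own exon. Overlapping matches of different motifs were counted separately. These matches are a description of the letters in each window.

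Ano3, which encodes a member linked in humans to dystonia and in rat sensory neurons to sodium-activated potassium channels, was counted well in every library. It had 619, 641, 662 and 562 counts in irradiated libraries I to IV, and 209, 242, 303 and 283 counts in non-irradiated libraries. On the CPM scale it stood at 17.1, 19.4, 18.2 and 18.5 in irradiated libraries and at 7.29, 7.69, 8.20 and 8.92 in non-irradiated libraries. Every irradiated library was above every non-irradiated library. The means were 18.3 ± 0.942 CPM in irradiated and 8.03 ± 0.702 CPM in non-irradiated libraries (SD, n = 4 each), a ratio of 2.27 in the fit. The gene (ENSMUSG00000074968) is protein-coding and lies on chromosome 2 from 110655201 to 110950923 of mm10, on the minus strand.

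The genes next to Ano3 had next to no counts. The mucin gene Muc15 lies on the opposite strand within the span of Ano3 and shares 61 exonic bases with it. Muc15 had 2, 2, 8 and 5 counts in irradiated libraries and 0, 1, 2 and 3 counts in non-irradiated libraries. The sources used here do not say whether reads were counted by strand, so reads in the shared bases cannot be assigned. The nearest protein-coding neighbours were Slc5a12, a lactate transporter gene with 0 to 3 counts in every library, and Gm13941, with 0. Neither Muc15 nor the neighbours reached the counts needed for a test.

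How far the difference of Ano3 was shared was read from the 3 other members that passed the low-count filter, all of which were well counted in both groups. Ano8 was called higher in irradiated cells, and Ano6 and Ano10 were not called. That is 1 of 3 called higher, where 2.59% of the 15259 genes tested were called higher, and 0 of 3 called lower, where 4.15% were. At an unadjusted p under 0.05, the counts were also 1 higher and 0 lower, where 9.5% of all genes tested were higher and 11.7% lower. DESeq2 called 1 higher and 0 lower too, where it called 4.18% higher and 6.01% lower of the 12892 genes to which it gave an adjusted p. The median log2 fold change of the 3 was 0.01, against 0.00 over all genes tested.

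Ano8, the tether between the endoplasmic reticulum and the plasma membrane, was at 35.0, 35.0, 39.3 and 43.6 CPM in irradiated libraries I to IV, and at 29.6, 31.7, 30.0 and 30.6 CPM in non-irradiated libraries. Irradiated IV was the highest and the groups did not overlap. The mean was 38.2 ± 4.10 CPM in irradiated and 30.5 ± 0.906 CPM in non-irradiated libraries (SD, n = 4 each). The log2 fold change was 0.33 (SE 0.07, 95% interval 0.18 to 0.47) with an adjusted p = 0.0087 by edgeR's quasi-likelihood test, a 1.25-fold rise. The spread among irradiated libraries went with the mitochondrial rRNA: the libraries with the higher rRNA, I and II, had the lower Ano8. The part of the rRNA in this result was not tested beyond the values that follow. Without both of them, a setting chosen after seeing the data, the log2 fold change was 0.44. With each library's trend on GC content and transcript length removed, also chosen afterwards, it was 0.31 with an adjusted p = 0.00836. The longest Ano8 transcript is 56.5% GC, against 40.2% for Ano3, 50.3% for Ano6 and 51.5% for Ano10. The Ano8 gene (ENSMUSG00000034863, chromosome 8, 71476019 to 71485963, minus strand) shares 80 exonic bases with Dda1 on the opposite strand. Dda1, a component of ubiquitin ligase complexes, was at 52.7 ± 2.11 CPM in irradiated and 52.5 ± 5.35 CPM in non-irradiated libraries (log2 fold change 0.01, adjusted p = 0.971).

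**Figure D2:**
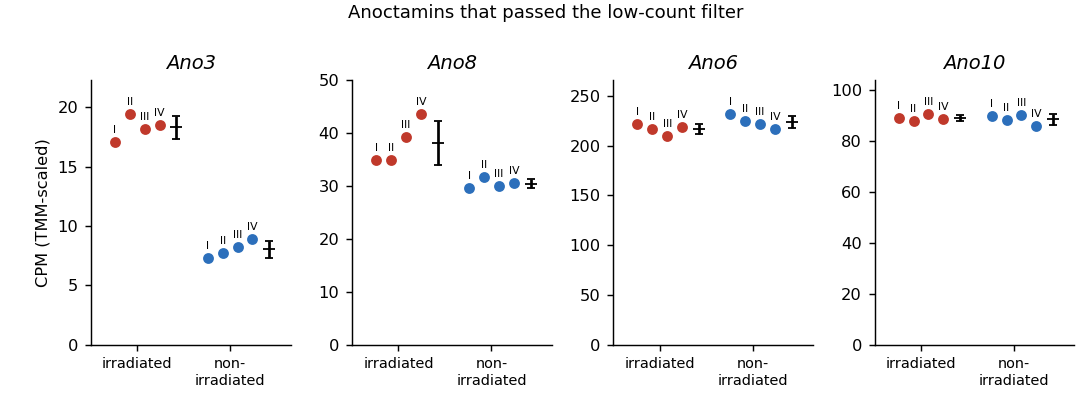
CPM (vertical axes from 0) of the 4 anoctamins that passed the filter, with a point per library labelled by its numeral and the mean ± SD (n = 4) beside each group. Ano3 and Ano8 are higher in all irradiated libraries, at 17.1 to 19.4 CPM and 35.0 to 43.6 CPM, while Ano6 and Ano10 overlap between the groups.

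Ano6, the plasma membrane scramblase, was at 222.2, 216.4, 209.8 and 218.4 CPM in irradiated libraries I to IV, and at 231.6, 224.8, 222.3 and 217.2 CPM in non-irradiated libraries. Irradiated III was the lowest and the groups overlapped. The mean was 217 ± 5.21 CPM in irradiated and 224 ± 5.98 CPM in non-irradiated libraries (SD, n = 4 each), with a log2 fold change of -0.05 (SE 0.03, 95% interval -0.12 to 0.03, adjusted p = 0.469, edgeR). Ano6 (ENSMUSG00000064210) lies on chromosome 15 from 95790843 to 95974751 on the plus strand. Of 5 annotated genes that overlap its span on the opposite strand, Gm49172 and A130051J06Rik share 122 and 214 exonic bases with it. Gm49172 was at 18.3 ± 0.640 CPM in irradiated and 19.2 ± 1.54 CPM in non-irradiated libraries (adjusted p = 0.59), and A130051J06Rik at 1.68 ± 0.443 and 1.53 ± 0.253 CPM (adjusted p = 0.782). The other 3, Gm49173, Gm17546 and Gm25070, had at most 9 counts in a library.

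Ano10, which resides largely in intracellular membranes and is mutated in a recessive human ataxia, was at 89.1, 88.0, 90.6 and 88.7 CPM in irradiated libraries, and at 89.9, 88.3, 90.4 and 85.9 CPM in non-irradiated libraries. The values of the groups lay within each other. The mean was 89.1 ± 1.1 CPM in irradiated and 88.6 ± 2.02 CPM in non-irradiated libraries (SD, n = 4 each), with a log2 fold change of 0.01 (SE 0.04, 95% interval -0.07 to 0.09, adjusted p = 0.938, edgeR). Ano10 (ENSMUSG00000037949) lies on chromosome 9 from 122175874 to 122294423 on the minus strand.

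The upper ends of the 95% intervals of Ano8, Ano6 and Ano10, at 0.47, 0.03 and 0.09, all lay below the log2 fold change of 1.18 that Ano3 had. Ano3 chose the family, so the gap between Ano3 and the others was not tested. In folds, the intervals ran from 1.14 to 1.38 for Ano8, from 0.919 to 1.02 for Ano6 and from 0.952 to 1.06 for Ano10.

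**Figure D3:**
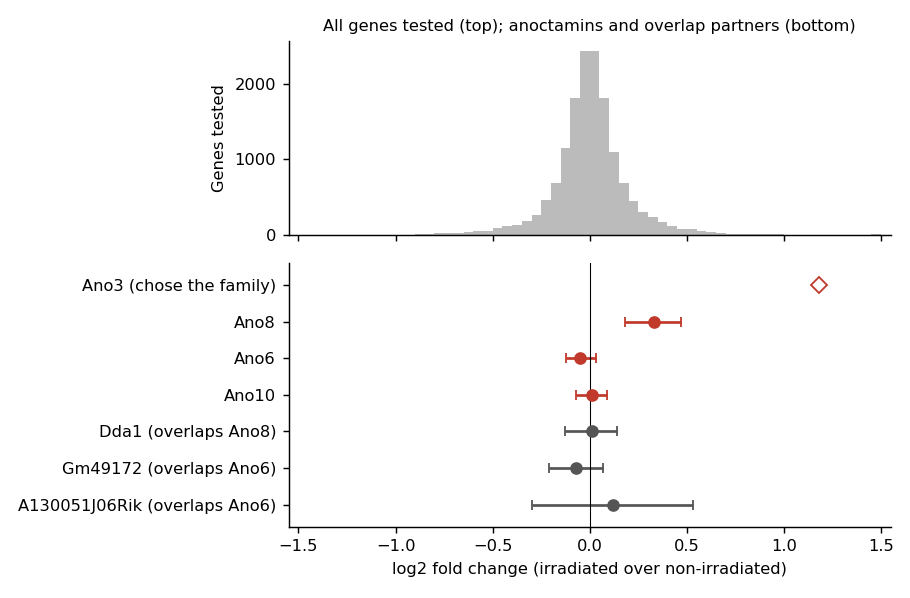
Upper panel, number of genes tested by log2 fold change (irradiated over non-irradiated) in bins of 0.05. The end bins also hold any gene below -1.5 or above 1.5. Lower panel, log2 fold change with its 95% interval for the anoctamins tested (red) and the tested genes that share exonic bases with them (grey), where Ano3 at 1.18 is an open diamond without an interval, Ano8 lies at 0.33, and Ano6, Ano10 and the overlap partners have intervals that include 0.

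In TPM, which carry no TMM factors, the make-up of the family's RNA moved with Ano3, while its total overlapped between the groups. Ano3 chose the family, so its shares and ratios are a description with no test. The summed TPM of the 10 genes was 157.5 ± 6.19 in irradiated and 156.0 ± 4.45 in non-irradiated libraries (SD, n = 4 each). Ano3 made up 5.82% to 6.66% of that sum in irradiated and 2.56% to 3.25% in non-irradiated libraries. Ano8 made up 13.6% ± 1.28 in irradiated and 11.5% ± 0.42 in non-irradiated libraries. Ano6 made up 42.0% to 44.5% in irradiated and 46.5% to 47.8% in non-irradiated libraries, and Ano10 35.9% to 37.6% and 38.2% to 39.2%. These shares add to a fixed total, so they do not move independently. In TPM itself, Ano6 was at 68.0 ± 2.43 in irradiated and 73.3 ± 2.96 in non-irradiated libraries. Ano10 was at 58.0 ± 1.79 TPM in irradiated and 60.2 ± 1.39 TPM in non-irradiated libraries. In CPM with TMM factors, the means were 217 and 224 for Ano6, and 89.1 and 88.6 for Ano10. The TPM differences were not tested. On the TPM scale, the ratio of Ano3 to Ano6 was 0.144 ± 0.0092 in irradiated and 0.061 ± 0.00694 in non-irradiated libraries, and the ratio of Ano3 to Ano8 was 0.458 ± 0.0515 in irradiated and 0.25 ± 0.0222 in non-irradiated libraries. The sizes depend on the gene length used. With the longest transcript, Ano3 made up 3.1% ± 0.176 in irradiated and 1.39% ± 0.148 in non-irradiated libraries, and its ratio to Ano6 was 0.0622 ± 0.00398 in irradiated and 0.0264 ± 0.003 in non-irradiated libraries. The summed TPM was then 265.7 ± 8.33 in irradiated and 268.3 ± 7.48 in non-irradiated libraries, so that its small difference turned sign, and the groups overlapped on either scale.

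The genes whose log2 CPM was most like that of Ano3 over the 8 libraries were taken from 10347 tested genes with a mean of at least 5 CPM. They were the zinc finger gene Zscan29 (Pearson r = 0.988), Trp53inp1, a nuclear protein gene (0.987), Ctsf, which encodes the lysosomal protease cathepsin F (0.983), Ccng1, cyclin G1 (0.981), and Serpine2, a protease inhibitor gene (0.979). All 8 points fall into the groups, so these correlations rest on the difference between irradiated and non-irradiated libraries and carry no test. None of the 5 moved as far as Ano3: Serpine2 was at 146 ± 1.69 CPM in irradiated and 94.4 ± 2.93 CPM in non-irradiated libraries (log2 fold change 0.63), and Zscan29 at 46.9 ± 0.677 and 40.6 ± 0.565 CPM (0.21). Among the anoctamins, the same correlation with Ano3 was 0.85 for Ano8, 0.07 for Ano10 and -0.68 for Ano6.

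**Figure D4:**
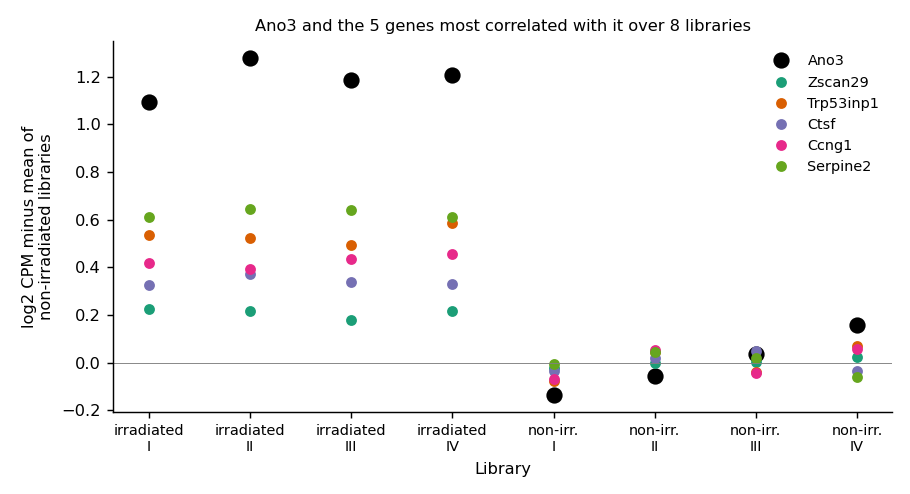
Log2 CPM of Ano3 and the 5 genes most correlated with it (vertical axis, relative to each gene's mean over the non-irradiated libraries) in each of the 8 libraries (horizontal axis). All 6 genes are higher in the 4 irradiated libraries, and Ano3 stands above the other 5 there.

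Of the 4 related gene lists, edgeR called 3 genes among the scramblases and flippases and 1 among the chloride channels. The lists were small, with 6 to 21 genes tested, and were not compared with each other. The TMEM63 and TMC proteins are the nearest relatives of the anoctamins in fold. Of 11 such genes 6 were tested and 0 were called in either direction by edgeR or DESeq2, where 6.74% of all genes tested were called by edgeR. At an unadjusted p under 0.05, 1 was lower and 0 higher, against 11.7% and 9.5% of all genes. Their median log2 fold change was -0.01. Tmem63b, a mechanically gated ion channel gene, was at 94.5 ± 2.48 CPM in irradiated and 93.7 ± 2.92 CPM in non-irradiated libraries (log2 fold change 0.01, adjusted p = 0.895, edgeR). Tmem63a, of the same channel family, was at 83.6 ± 2.94 CPM in irradiated and 89.1 ± 3.30 CPM in non-irradiated libraries (-0.09, 0.234). Tmc7 was at 1.04 ± 0.185 and 1.24 ± 0.307 CPM (-0.22, 0.58).

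Among other genes listed as scramblases and flippases, which move phospholipids between leaflets, or as their relatives and subunits, 3 were called lower in irradiated cells. Of these 31 genes 21 were tested, and both edgeR and DESeq2 called 0 higher and 3 lower. The edgeR calls are 14.3% of the 21 tested. Of all genes tested, 4.15% were called lower and 6.74% in either direction. The median log2 fold change was 0.00, as over all genes. At an unadjusted p under 0.05, 1 was higher and 3 were lower, where 9.5% and 11.7% of all genes were. Atp8b1, an aminophospholipid flippase gene, was at 73.9, 70.8, 73.5 and 78.6 CPM in irradiated libraries I to IV and at 95.7, 100.7, 94.4 and 95.1 CPM in non-irradiated libraries. It fell without overlap of the groups (log2 fold change -0.38, SE 0.04, adjusted p = 0.000119, edgeR). The flippase gene Atp10a fell to 55.3 ± 2.2 CPM in irradiated libraries, against 62.7 ± 1.2 CPM in non-irradiated libraries (-0.18, adjusted p = 0.0145). The third, Xkr5, a relative of the apoptotic scramblase Xkr8 that was named after its values were seen, was at 1.13 ± 0.141 CPM in irradiated and 1.78 ± 0.292 CPM in non-irradiated libraries (-0.62, adjusted p = 0.0367). The call of Atp8b1 was kept in all 15 alternatives. That of Atp10a was lost without irradiated I (adjusted p = 0.0614, edgeR), without irradiated IV (0.0522) and without both irradiated I and II (0.135). That of Xkr5 was lost on leaving out any 1 of irradiated II, III and IV and non-irradiated I, II and IV (adjusted p up to 0.114), and without both irradiated I and II (0.103). Tmem30a, the chaperone subunit of most flippases, was at 248 ± 7.99 CPM in irradiated and 237 ± 12.8 CPM in non-irradiated libraries (0.06, adjusted p = 0.421).

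Of 22 other chloride channel genes 18 were tested, and 1 was called higher and 0 lower by both edgeR and DESeq2, with a median log2 fold change of -0.03. The 1 call is 5.56% of the 18 tested, below the 6.74% of all genes tested called in either direction. Of all genes tested, 2.59% were called higher and 4.15% lower. At an unadjusted p under 0.05, 2 were higher and 0 lower, where 9.5% and 11.7% of all genes were. Clcn7, the lysosomal chloride-proton exchanger, was at 180.0, 179.5, 188.8 and 177.6 CPM in irradiated libraries and at 172.8, 153.7, 165.3 and 154.4 CPM in non-irradiated libraries. It rose with a log2 fold change of 0.17 (SE 0.04, adjusted p = 0.033, edgeR), a call lost without any 1 of irradiated I to IV and non-irradiated II and IV (adjusted p up to 0.106) and without both irradiated I and II (0.132). Best1, a bestrophin channel gene, was at 1.89 ± 0.117 CPM in irradiated and 1.40 ± 0.214 CPM in non-irradiated libraries (0.42, adjusted p = 0.0997). Clcn5, an endosomal exchanger gene, was at 89.5 ± 4.39 and 89.5 ± 3.51 CPM (0.00, 0.996).

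Genes that store or admit the calcium which opens anoctamin channels were not called by edgeR. Of 21 listed 14 were tested, with 0 higher and 0 lower, where 2.59% and 4.15% of all genes tested were. At an unadjusted p under 0.05, 1 was higher and 0 lower, where 9.5% and 11.7% of all genes were. The median log2 fold change was 0.01. DESeq2 called 1 higher, the store sensor gene Stim2. Stim2 was at 69.2 ± 3.44 CPM in irradiated and 62.7 ± 1.68 CPM in non-irradiated libraries, without overlap (log2 fold change 0.14, adjusted p = 0.0712 by edgeR and 0.0374 by DESeq2). The calcium release-activated channel gene Orai2 was at 28.4 ± 1.23 CPM in irradiated and 26.2 ± 2.05 CPM in non-irradiated libraries (0.12, adjusted p = 0.282, edgeR). Atp2a2, the main calcium pump of the endoplasmic reticulum, was at 394.2 ± 7.14 and 392.3 ± 5.37 CPM (0.01, 0.928).

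**Figure D5:**
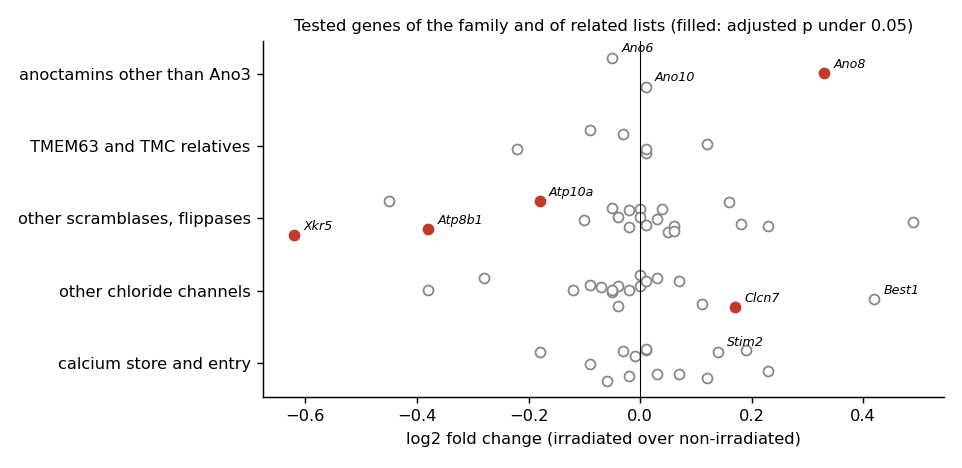
Log2 fold change (irradiated over non-irradiated, horizontal axis) of every tested gene of the family other than Ano3 and of the 4 related lists (rows; vertical spread within a row only separates points). Filled points have an adjusted p under 0.05 by edgeR: Ano8 and Clcn7 above 0, and Xkr5, Atp8b1 and Atp10a below it.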

How the data were processed

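The authors deposited unnormalized read counts per gene, in whole numbers, for each library. Per the submitters' processing notes, STAR 2.5.2a, featureCounts 1.5.0-p1 and bcl2fastq 2.20.0.422 were used, with mm10. For annotation, strand and multi-mapping reads, the setting is not given in the sources used here.

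GENCODE M21 (GRCm38, the assembly of mm10) gave symbols and exon lengths to 55480 identifiers. Counts were tested with edgeR 4.0.16 (R 4.3.3): TMM factors, filterByExpr (minimum count 10, minimum total 15; 15259 genes kept), a quasi-likelihood fit on group alone, prior count 2, and Benjamini-Hochberg adjustment over all genes tested, called at 0.05. SEs came from the fold change and F statistic. TPM used the union of annotated exons and no TMM factors. The fit was tested on simulated data. Simulated libraries were drawn independently, so this cannot show how the p-values hold if libraries of a group are not independent. No replicate pair agreed within counting noise (chi-square per degree of freedom at least 5.12). Irradiated libraries fell into closer pairs, I with II (5.46) and III with IV (5.12), against 16 to 27.6 across these pairs. Among non-irradiated libraries, II and IV were closest (5.29), and the others ran from 8.6 to 13.9. The 4 libraries of a group may thus not vary independently, which was not tested.

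The members and lists were chosen with earlier results of these data known. Named were all members, genes overlapping them or flanking Ano3, the 5 genes most correlated with Ano3 and, from each list, the 2 genes with the smallest adjusted p and the most abundant other. Alternatives were RLE factors, DESeq2 1.42.0, no filter, at least 1 CPM in 4 libraries, the replicate numeral as a block, leaving out each library, and longest-transcript lengths. Leaving out irradiated I and II, and removing a GC and length trend (loess span 0.5), were chosen after seeing the data.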

Additional observations from a re-analysis of the deposited data

How the results depend on the processing

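The call of Ano8 was kept in all 15 alternatives, with log2 fold changes from 0.26 to 0.44 and adjusted p up to 0.0295, and the lack of a call for Ano6 and Ano10 in the same 15 (adjusted p from 0.374 and 0.85). The log2 fold change of Ano3, which carries no test, ran from 1.14 to 1.23 over 16 alternatives. Whether the numerals pair the libraries was not settled by these correlations. Deviations of same-numbered libraries correlated at 0.025, -0.033, 0.275 and 0.147. Irradiated III correlated best with its own number, and irradiated IV about as well with its own as with non-irradiated II (0.148). Irradiated I and II correlated best with another number. With the numeral as a replicate block, Ano8 had a log2 fold change of 0.32 (adjusted p = 0.00818), 1 of the 3 other members was called higher, and the counts of the 4 lists were those of the fit without it. Over all genes the block raised the calls to 550 higher and 802 lower, against 395 and 634.

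Leaving out 1 library at a time gave 1 to 3 lower scramblase and flippase genes and 0 to 1 higher chloride channel genes. Without both irradiated I and II these counts were 1 and 0. DESeq2 called 1 calcium gene higher, against 0 with edgeR. The causes were not tested. The sign turned for genes near 0, none of them called: when leaving out 1 library, Ano10 ran from -0.01 to 0.02, Tmem63b from -0.01 to 0.02, Clcn5 from -0.03 to 0.02, Atp2a2 from 0.00 to 0.02, A130051J06Rik from -0.03 to 0.27 and Dda1 from -0.04 to 0.07. With the GC and length trend removed, Ano10 was at 0.00, Clcn5 at 0.03 and Dda1 at -0.01. Without both irradiated I and II, Tmem63b was at -0.01 and Clcn5 at 0.02. Clcn5 was at 0.00 with RLE factors, DESeq2, no filter and at least 1 CPM in 4 libraries. Changes of the 6 anoctamins with few or no counts cannot be seen at this depth.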
